A study of Homo sapiens with 24 samples.

Results

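The genes described here are 32 genes that the tumour suppressor p53 is known to switch on, measured in 4 breast cancer cell lines before and after knockdown of the RNA-editing enzyme ADAR1. They were listed by symbol, with earlier results of these data known, and all 32 were found among the 37416 genes of the deposited count files. Of these, 31 had enough reads to be tested. The remaining gene, EDA2R, a receptor of the tumour necrosis factor family, was at or near 0 in all 4 lines.

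RNA was sequenced from BT549, HCC1806, MDAMB231 and MDAMB468, established human triple-negative lines. In each line 3 biological replicates expressed a hairpin RNA that targets ADAR1 (shADAR1) and 3 a control hairpin without a target (shNT), which made 24 libraries. Both arms received lentivirus for 24 h and then puromycin at 2 µg/ml for 72 h, so the shNT level is that of infected and selected cells and not of untouched ones. No group lacked the virus or the drug, each line stands for 1 tumour, and the sequence and number of the hairpins are not stated in the labels.

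p53 is a transcription factor that cells stabilise after DNA damage and other stress. It binds a pair of 10-base elements in or near its target genes and raises genes that stop the cell cycle, repair DNA, trigger death or alter metabolism, while the ubiquitin ligase MDM2, itself a p53 target, keeps p53 low. Many p53 targets are also under the control of other factors, such as the p53 relatives p63 and p73.

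The promoter sequences below are shown because they hold matches to the 10-base element of which p53 binds a pair. RefSeq promoter entries (GRCh38.p14, 250 bases before to 50 after the start of transcription) were at hand for 24 of the 32 genes. In 7 of the 24 (29.2%) the p53 half-site consensus, a 10-letter motif that reads the same way on both strands, was found at least once. Over all 27305 genes with an entry, 2202 (8.06%) held it. The capitals mark the motif, and the letters run 5′ to 3′ on the gene's strand.
AEN: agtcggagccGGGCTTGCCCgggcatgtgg
FAS: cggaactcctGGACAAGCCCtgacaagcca
FDXR: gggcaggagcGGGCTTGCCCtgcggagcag
PLK2: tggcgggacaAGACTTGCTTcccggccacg
RPS27L: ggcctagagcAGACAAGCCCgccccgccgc
SESN1: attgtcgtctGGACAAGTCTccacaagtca
DDB2: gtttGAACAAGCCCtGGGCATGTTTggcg

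DDB2, which helps to recognise ultraviolet damage in DNA, was the 1 gene of the 24 in which 2 such motifs lay within 13 bases of each other. They were 1 base apart at chr11:47214975-47215003 on the plus strand. Only 10 genes of the 27305 (0.037%) had such a pair in this window. The other sequences lie at chr15:88621296-88621325 for AEN (plus), chr10:88991299-88991328 for FAS (plus), chr17:74872986-74873015 for FDXR (minus), chr5:58460199-58460228 for PLK2 (minus), chr15:63157517-63157546 for RPS27L (minus) and chr6:109009018-109009047 for SESN1 (minus). A match describes the letters, not binding, and p53 elements farther from the start, as in introns, are outside this window.

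Total counts per library ran from 10370645 to 97218217. ADAR fell in every line, by 2.19 on the log2 scale in MDAMB231, 1.94 in BT549, 1.59 in HCC1806 and 1.43 in MDAMB468 (highest adjusted p of the 4, 3.18e-05, edgeR). Levels below are CPM, read counts scaled to the library total and corrected by the TMM method, given as mean ± SD over the 3 libraries of an arm; levels of different genes are compared only per length, as CPM per kilobase (kb) of gene. Changes are log2 fold changes of shADAR1 against shNT from edgeR's quasi-likelihood test, with p-values adjusted over the 21352 genes tested and a threshold of 0.05. Of 5 epithelial markers (KRT8, KRT18, KRT19, KRT7 and EPCAM), all were at 8.95 CPM or more in shNT in HCC1806, MDAMB231 and MDAMB468, and all were under 1 CPM in BT549. Mesenchymal markers are not compared between the lines here. PGR, the progesterone receptor gene, was under 1 CPM in every line, and ESR1, the oestrogen receptor gene, reached 19.1 CPM in HCC1806. In these bulk samples, fewer cells that express a gene and less of its RNA per cell cannot be told apart.

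Before knockdown, the p53 targets differed widely between the lines. The shNT levels of 30 of the 31 tested genes differed between the 4 lines in a joint edgeR test. The share over all genes was 85.9%, so line differences of this kind were the rule. ACER2, an alkaline ceramidase, was the exception, with means of 1.63 to 1.84 CPM in all 4 lines (adjusted p = 0.933, edgeR). Pair by pair, 22 of the 31 differed between HCC1806 and BT549 (background 63.5%), 21 between MDAMB231 and BT549 (56.5%), 21 between MDAMB468 and BT549 (61%), 23 between MDAMB231 and HCC1806 (59%), 27 between MDAMB468 and HCC1806 (62.9%) and 22 between MDAMB468 and MDAMB231 (61.8%). HCC1806 had the highest mean for 13 of the 32 genes and BT549 the lowest for 13, among them EDA2R, tied at 0 with MDAMB468.

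CDKN1A encodes p21, the inhibitor of cyclin-dependent kinases through which p53 halts the cell cycle. In shNT it was at 8.41, 6.89 and 9.82 CPM in the BT549 libraries, 32.9, 16.5 and 27.5 in MDAMB468, 71.0, 41.9 and 67.6 in MDAMB231, and 194, 261 and 119 in HCC1806. The ranges of the 4 lines did not overlap, and each step of that order passed the test (highest adjusted p of the 3 steps, 0.00289, edgeR). HCC1806 stood 22.8-fold above BT549. Per length, CDKN1A was the most abundant of the 32 genes in HCC1806, at 62.7 ± 23.3 CPM per kb, level with PERP at 62.1.

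PERP, a membrane protein of cell junctions and apoptosis, followed the same order of lines except that MDAMB231 came below MDAMB468. Its shNT mean was 7.36 ± 1.33 CPM in BT549, 61.4 ± 7.43 in MDAMB231, 175 ± 17.6 in MDAMB468 and 267 ± 38.0 in HCC1806, and all 3 steps passed the test. BT549, the lowest line, is also the line in which all 5 epithelial markers were under 1 CPM and EPCAM and KRT19 at 0; the part of epithelial state in the difference was not tested.

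BTG2, a growth-inhibiting cofactor of mRNA decay, had the widest range among the genes with reads in every line, but on few reads. It was at 0, 0.312 and 0.177 CPM in the shNT libraries of MDAMB231, from 0, 14 and 8 reads, and at 27.7, 26.0 and 22.9 in those of HCC1806, a ratio of 157 between the means and of 104.4 to 288.5 without 1 of those 3 MDAMB231 libraries. BT549 (3.15 ± 0.593 CPM) and MDAMB468 (3.02 ± 0.112) lay between and did not differ from each other (adjusted p = 0.852, edgeR).

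The 3 death receptors followed 3 different orders. FAS, the receptor of Fas ligand, was highest in BT549 at 18.8, 23.5 and 18.6 CPM and lowest in MDAMB468 at 1.10, 2.13 and 1.29, a 13.4-fold difference; BT549 and HCC1806 did not differ beyond the threshold (adjusted p = 0.0732, edgeR). TNFRSF10A, the TRAIL receptor DR4, was lowest in BT549 (3.68 ± 0.305 CPM) and highest in HCC1806 (41.9 ± 5.38), where it did not differ from MDAMB231. TNFRSF10B, the TRAIL receptor DR5, was highest in MDAMB231 (173 ± 13.4 CPM) and lowest in MDAMB468 (41.4 ± 6.53).

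PLK2, a polo-like kinase induced by stress, was the most abundant of the genes per length in BT549 (84.3 ± 14.8 CPM per kb), MDAMB231 (47.1 ± 14.9) and MDAMB468 (99.1 ± 20.5). No 2 lines next to each other in its order differed past the threshold. At the other end, SPATA18, which acts in mitochondrial quality control, had no read in the 3 shNT libraries of MDAMB468, and its mean stayed under 1 CPM in every line, as did that of EDA2R. Within MDAMB468 the lowest gene with any reads was FAS, at 0.409 CPM per kb.

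**Figure D1:**
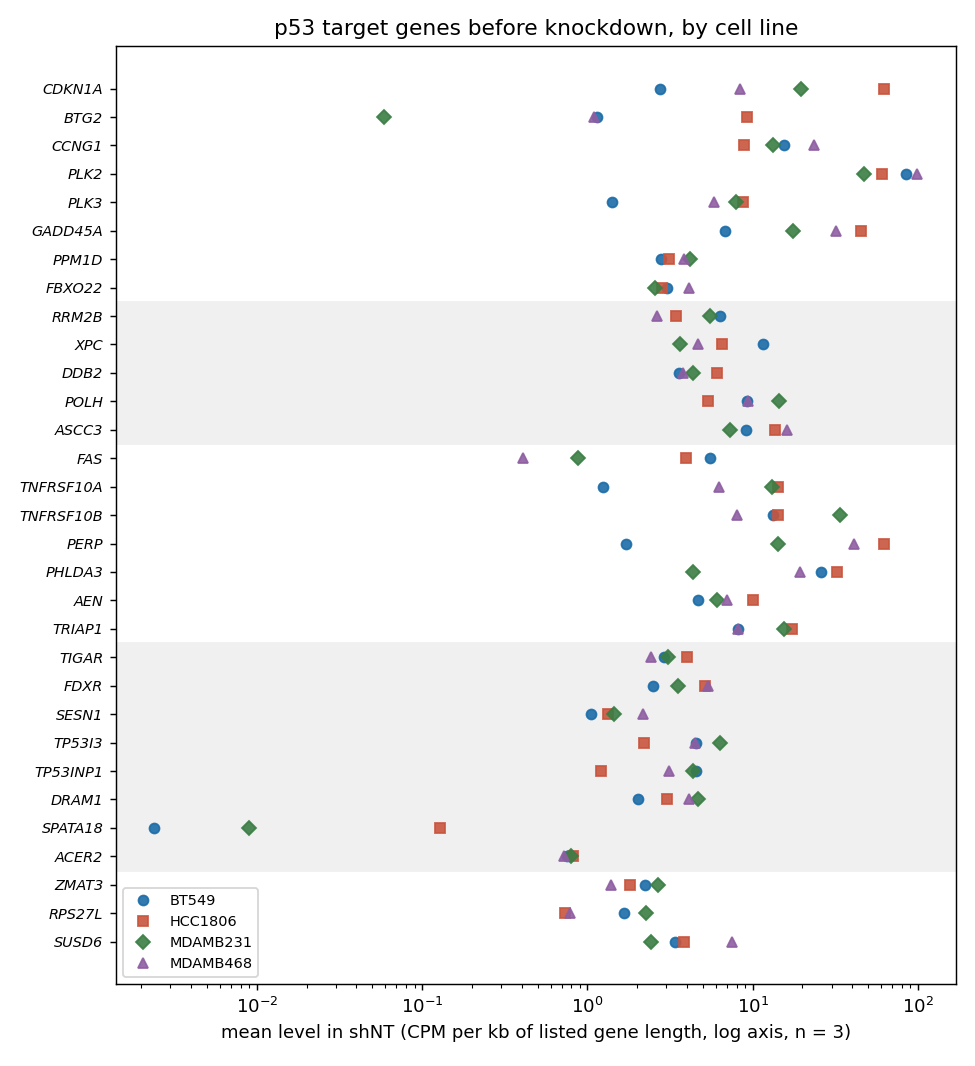
Mean shNT level of the tested p53 target genes in the 4 lines, in CPM per kb of gene length on a log axis, with 3 libraries per mean and bands grouping genes by role. BTG2 and SPATA18, both on few reads in at least 1 line, spread most widely, then PERP and CDKN1A, while ACER2 and PPM1D lie close together, and SPATA18 in MDAMB468 is at 0 and not drawn.

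The genes of 2 factors that can bind the same elements also differed between the lines. TP63 was at 174 ± 30.7 CPM in HCC1806 and at 0.962 to 1.54 CPM in the other 3 lines. TP73 increased from BT549 (7.20 ± 1.06 CPM) through MDAMB231 (15.9 ± 1.17) and MDAMB468 (32.3 ± 1.59) to HCC1806 (42.7 ± 4.78). With 4 lines these are descriptions, and the part of p63 or p73 in the target levels was not tested.

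Knockdown of ADAR1 moved few of the p53 targets past the adjusted threshold. Without regard to replicate numbers, 1 of 31 genes was called in BT549 (background over all genes 0.473%), 0 in HCC1806 (0.0468%), 2 in MDAMB231 (2.01%) and 0 in MDAMB468 (0.0375%). On the mean of the 4 line effects 2 were called (2.96%). Every call among the 31 was a fall, and the genes were POLH and TP53INP1. MDM2, also a p53 target, is outside this list and rose on the mean of the lines, as given below with the regulators. In HCC1806 none of the 31 genes passed even an unadjusted p of 0.05 (4.35% of all genes did), against 2 in MDAMB468 (3.76%). DESeq2 called 0 in both lines (over all genes 0.187% in HCC1806 and 0.197% in MDAMB468). At an unadjusted edgeR p under 0.05, 3 passed in BT549 (6.42%), 8 in MDAMB231 (11.7%) and 10 on the mean of the lines (12.8%). The median log2 fold change over the 31 genes was 0.09 in MDAMB231, 0.08 in HCC1806, 0.06 in MDAMB468 and 0.05 in BT549, against 0.00 to 0.01 over all genes.

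The libraries with the same replicate number deviated together in BT549, HCC1806 and MDAMB231. When the number was kept as a block in all 4 lines, more genes passed the threshold and in both directions. The counts became 1 higher and 1 lower in BT549 (background 2.48% and 2.66%), 1 and 0 in HCC1806 (1.47% and 0.632%), 4 and 5 in MDAMB231 (5.08% and 6.32%), and 7 and 4 on the mean of the lines (7.25% and 5.96%). With the block only in the 3 lines whose libraries paired, they were 1 and 1 in BT549 (1.29% and 1.56%), 0 and 0 in HCC1806 (0.571% and 0.239%), 2 and 4 in MDAMB231 (3.47% and 4.85%) and 4 and 3 on the mean (4.98% and 4.57%). Values named below as blocked are from the fit with the block in all 4 lines.

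**Figure D2:**
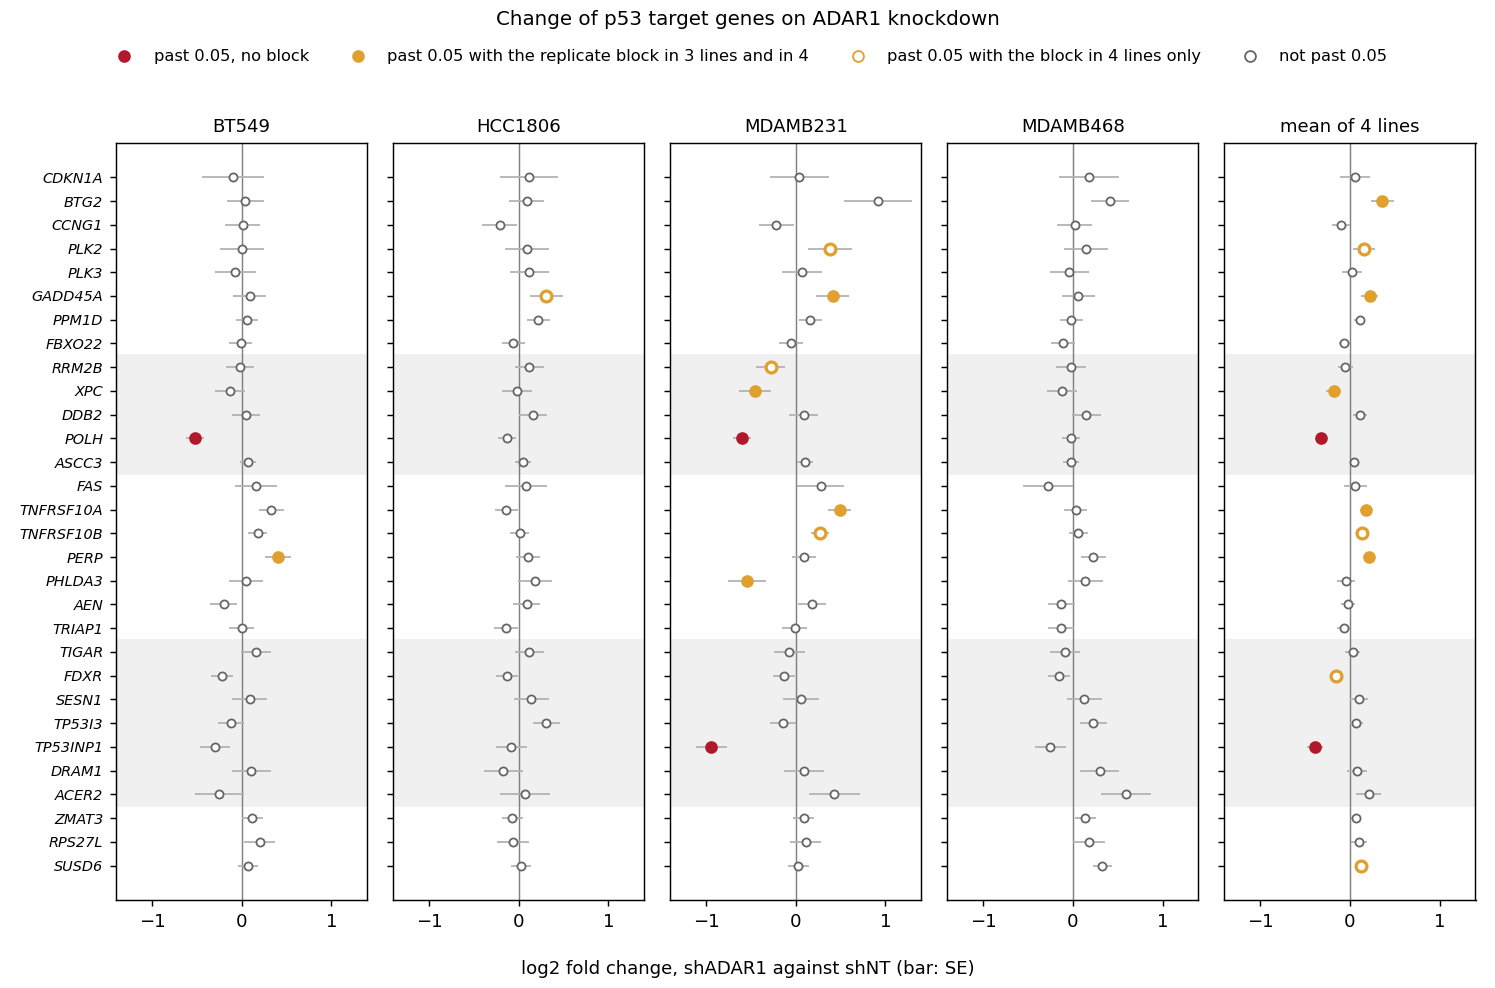
Log2 fold change (shADAR1 against shNT, bars are SE) of 30 p53 target genes in each line and on the mean of the 4 lines, grouped by role. Filled red points passed the threshold of 0.05 without a block, orange ones only with it (open where lost with the block in 3 lines; not shown for MDAMB468), and the red ones are POLH in BT549, POLH and TP53INP1 in MDAMB231, and both on the mean; SPATA18, with too few reads for a stable estimate, is not drawn.

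Among the 8 genes of cell cycle arrest, 0 were called without the block. On the mean of the lines 3 rose with it (7.25% of all genes), GADD45A, BTG2 and PLK2, and 2 with the block in 3 lines (4.98%), where PLK2 was lost (adjusted p = 0.102, against 0.000612 with the block in all 4 lines, edgeR). CDKN1A did not pass in any fit. Its shADAR1 libraries were at 6.32, 8.66 and 8.33 CPM in BT549, 221, 272 and 129 in HCC1806, 85.0, 40.6 and 60.3 in MDAMB231, and 39.7, 17.8 and 29.8 in MDAMB468. In each line they overlapped the shNT libraries given above. The log2 fold changes were -0.10 ± 0.34 (SE), 0.12 ± 0.32, 0.04 ± 0.33 and 0.18 ± 0.33 in that order, and 0.06 ± 0.17 on the mean of the lines, with an adjusted p of 1 in all 5 edgeR tests.

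GADD45A, a stress sensor that acts in growth arrest and repair, was higher in all 4 lines. In MDAMB231 it went from 48.5, 27.9 and 32.1 to 64.8, 36.0 and 42.2 CPM, higher within every numbered pair although the arms overlapped. The change there was 0.41 (adjusted p = 0.378; blocked 0.39, adjusted p = 0.00135, edgeR), and on the mean of the lines 0.22 (adjusted p = 0.286; blocked 0.21, adjusted p = 0.000445). In HCC1806 the blocked change of 0.30 had an adjusted p of 0.0276, lost at 0.0617 with the block in 3 lines.

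BTG2 was at 0.240, 0.519 and 0.375 CPM after knockdown in MDAMB231, still the lowest of the lines. Its change on the mean of the lines was 0.36 (adjusted p = 0.171; blocked 0.38, adjusted p = 0.0335, edgeR). PLK2 rose in MDAMB231 by 0.37 in the blocked fit (adjusted p = 0.000136), from 297, 154 and 223 to 401, 214 and 260 CPM; this call was lost at 0.0513 with the block in 3 lines. CCNG1, PLK3, PPM1D, a phosphatase that dampens p53 signalling, and FBXO22, a ubiquitin ligase subunit, passed in no line and not on the mean, blocked or not.

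In the group of DNA repair and nucleotide supply, calls were falls. POLH encodes DNA polymerase eta, which copies past ultraviolet damage, and lies at chr6:43576150-43615660 in the files' coordinates. In BT549 it was at 33.0, 33.7 and 31.1 CPM in shNT and at 23.1, 21.8 and 23.4 in shADAR1. In MDAMB231 the values were 50.02, 48.5 and 54.1 against 30.9, 31.7 and 38.0. The arms did not overlap in either line.

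POLH fell by 0.52 ± 0.10 (SE) on the log2 scale in BT549 (adjusted p = 0.00955) and by 0.60 ± 0.10 in MDAMB231 (adjusted p = 0.000857, edgeR). On the mean of the lines it fell by 0.32 ± 0.05 (adjusted p = 0.000284). In HCC1806 the arms overlapped, at 20.8, 17.8 and 18.6 against 16.7, 16.1 and 19.3 CPM (-0.13 ± 0.10), as they did in MDAMB468, at 34.3, 30.5 and 34.1 against 34.2, 30.6 and 33.0 CPM (-0.02 ± 0.10). The changes of the 4 lines did not differ past the threshold without the block (adjusted p = 0.237) and did with it (0.00273; 0.0146 with the block in 3 lines). The BT549 call was lost, with an adjusted p of 0.0522 to 0.0913, without replicate 1 or 2 of either BT549 arm, while that of MDAMB231 stayed under 0.05 in all 24 fits that each left out 1 library.

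XPC, which recognises distorted DNA in nucleotide excision repair, was lower in all 4 lines. In MDAMB231 it went from 18.2, 14.5 and 19.9 to 13.8, 11.7 and 13.1 CPM, with no overlap between the arms. The change of -0.45 ± 0.18 (SE) there did not pass (adjusted p = 0.289) but did with the block (-0.44, adjusted p = 0.00184, edgeR). RRM2B, the p53-induced subunit of ribonucleotide reductase, fell by 0.28 in MDAMB231 with the block (adjusted p = 0.0308), a call lost at 0.059 with the block in 3 lines. DDB2, whose promoter holds the paired motif, was between 0.05 and 0.16 in the 4 lines and passed in none of them. ASCC3, a helicase subunit, passed in none either.

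**Figure D3:**
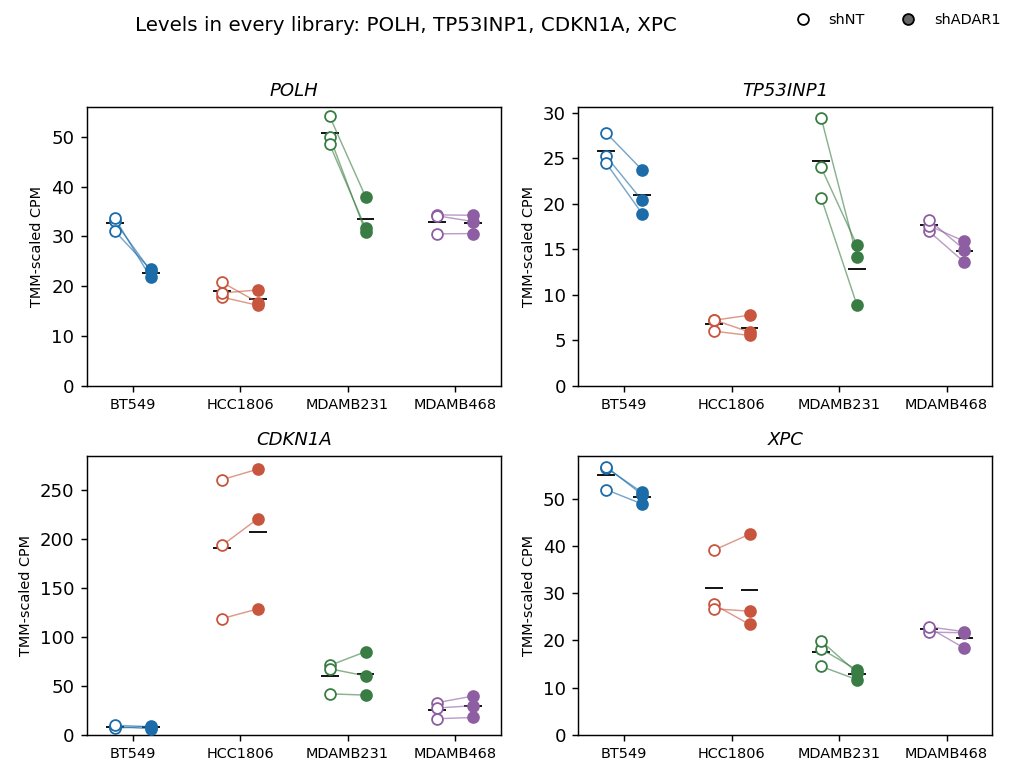
TMM-scaled CPM of POLH, TP53INP1, CDKN1A and XPC in each of the 24 libraries, open for shNT and filled for shADAR1, with lines joining equal replicate numbers and bars at the means. POLH and TP53INP1 in MDAMB231 separate the arms, from 48.5 or more to 38.0 or less for POLH, while the CDKN1A arms overlap in every line.

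Of the 7 tested genes of death receptors and apoptosis, 0 were called without the block. Positive changes numbered 6 in BT549, 5 in HCC1806 and in MDAMB231, and 4 in MDAMB468 and on the mean. The median log2 fold change over all genes there was 0.00 to 0.02. Blocking gave 3 higher and 0 lower on the mean of the lines (background 7.25% and 5.96%). With the block in 3 lines the counts were 2 and 0 (4.98% and 4.57%). Without the block TNFRSF10A was the closest to the threshold. In MDAMB231 it was at 36.2, 41.1 and 39.3 CPM in shNT and at 55.5, 54.3 and 53.7 in shADAR1, with no overlap. The change was 0.49 ± 0.13 (SE; adjusted p = 0.0545, edgeR) and passed with the block (0.48, adjusted p = 0.000261). BT549 had a change of 0.33 ± 0.14 with no overlap (adjusted p = 0.647), and MDAMB468 one of 0.03 ± 0.13 with overlapping arms. The mean of the lines was 0.18 (adjusted p = 0.208, blocked 0.00661, and 0.0331 with the block in 3 lines, edgeR).

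The estimate for TNFRSF10A in HCC1806 was below 0, with 36.4, 47.2 and 42.3 CPM in shNT and 32.9, 46.1 and 35.2 in shADAR1 (-0.14 ± 0.13, adjusted p = 1). The difference between HCC1806 and the mean of the other 3 lines was -0.43 ± 0.15 (adjusted p = 0.902; blocked -0.44, adjusted p = 0.0177, edgeR), and with the block in 3 lines it did not pass (0.104). It was the 1 gene of the 31 to differ in this way with the block (background 1.63%), against 0 without it (0.0141%; 2 at an unadjusted p under 0.05, as were 4.7% of all genes; 0 by DESeq2) and 0 with the block in 3 lines (0.445%). TNFRSF10B went from 158, 177 and 184 to 210, 201 and 217 CPM in MDAMB231, a blocked change of 0.27 (adjusted p = 0.0132; 0.0643 with the block in 3 lines). FAS passed in no line, with changes from -0.28 in MDAMB468, at about 1 CPM, to 0.28 in MDAMB231.

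PERP was higher in all 4 lines and did not overlap in BT549, where it went from 6.72, 6.46 and 8.89 to 9.0, 9.24 and 11.01 CPM. The BT549 change was 0.41 ± 0.14 (SE; adjusted p = 0.395; blocked 0.42, adjusted p = 0.000577, edgeR). On the mean of the lines it was 0.21 ± 0.07 (adjusted p = 0.128; blocked 0.21, adjusted p = 3.19e-05). With the block in all 4 lines the rise was also called in MDAMB468 (0.23, adjusted p = 0.0322, edgeR). That call was lost, with an adjusted p of 0.292, with the block in 3 lines. Before knockdown PERP was lowest in BT549, 36.2-fold under HCC1806, and at 175 CPM in MDAMB468.

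PHLDA3, which competes with the kinase AKT for membrane lipid, was called lower in MDAMB231 with the block. There it went from 7.57, 11.2 and 7.71 to 4.503, 8.79 and 4.90 CPM, lower within every numbered pair, with overlapping arms. The change of -0.54 ± 0.21 (SE; adjusted p = 0.279) passed with the block (-0.53, adjusted p = 0.0021, edgeR), and passed without a block when shADAR1 replicate 2 of MDAMB231 was left out (-0.93, adjusted p = 0.0109). In the other lines its change was 0.05 in BT549, 0.18 in HCC1806 and 0.14 in MDAMB468, none past the threshold. AEN, an apoptosis-enhancing nuclease, and TRIAP1, an inhibitor of apoptosis, passed in no line.

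**Figure D4:**
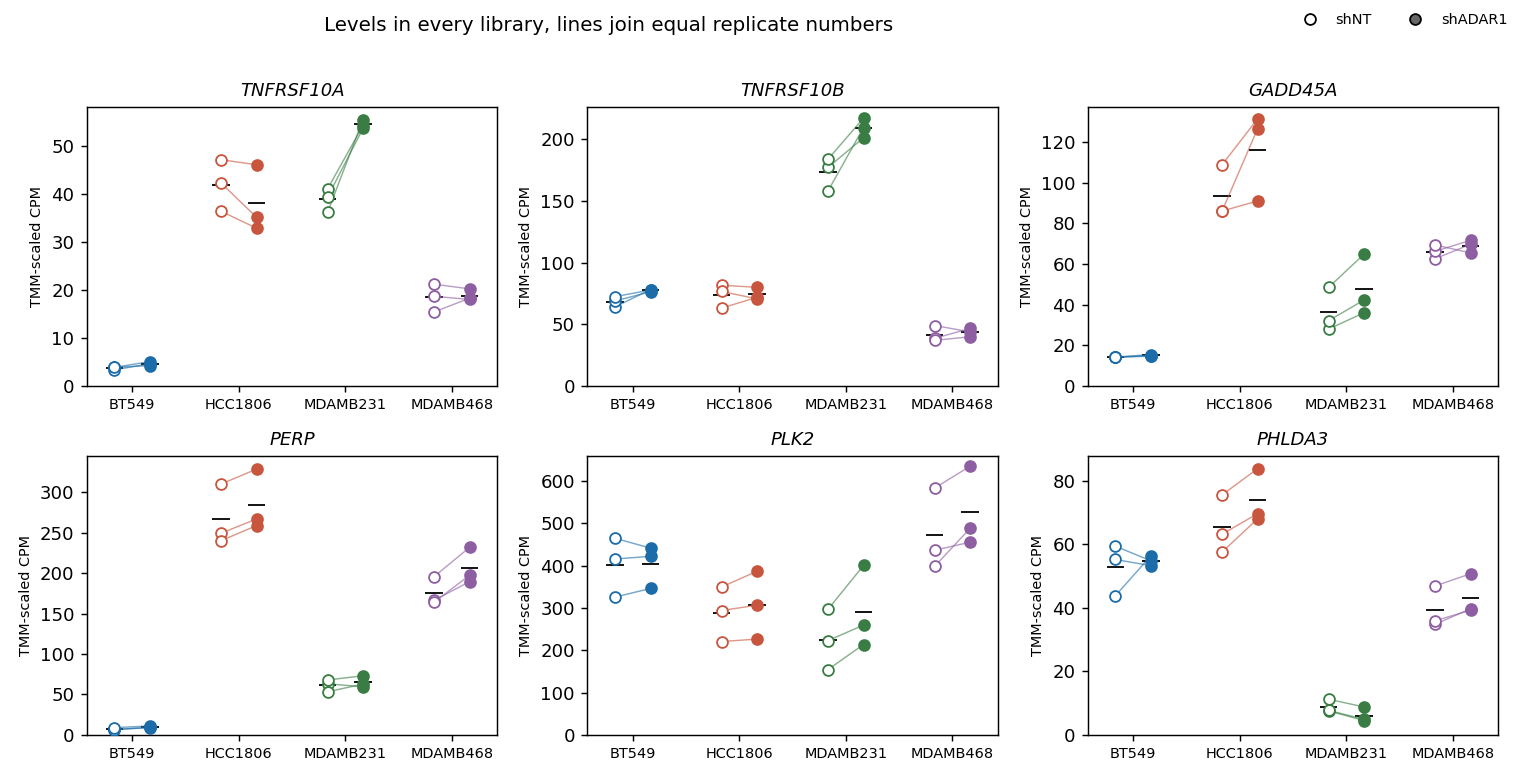
TMM-scaled CPM of TNFRSF10A, TNFRSF10B, GADD45A, PERP, PLK2 and PHLDA3 in each of the 24 libraries, open for shNT and filled for shADAR1, with lines joining equal replicate numbers and bars at the means. TNFRSF10A separates the arms in MDAMB231 (41.1 or less against 53.7 or more) and not in HCC1806, and every numbered pair of PHLDA3 falls in MDAMB231.

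Among the 8 genes of metabolism and autophagy, TP53INP1 was the 1 gene called. It encodes a stress-induced protein that promotes p53 activity and autophagy, and lies at chr8:94925972-94949411 in the files' coordinates. In MDAMB231 it was at 20.7, 29.5 and 24.0 CPM in shNT and at 8.86, 14.2 and 15.4 in shADAR1. BT549 had 25.2, 24.5 and 27.8 against 20.4, 18.9 and 23.7 CPM, and MDAMB468 17.0, 17.6 and 18.3 against 13.6, 15.9 and 15.0 CPM. The arms did not overlap in these 3 lines, and they did in HCC1806, the line with the least TP53INP1 (6.82 ± 0.703 CPM in shNT, 6.40 ± 1.19 in shADAR1).

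TP53INP1 fell by 0.94 ± 0.17 (SE) on the log2 scale in MDAMB231 (adjusted p = 0.00232, edgeR) and by 0.39 ± 0.09 on the mean of the lines (adjusted p = 0.00848). Both calls held in all 24 fits that left out 1 library, but a fit on the 6 MDAMB231 libraries alone gave an adjusted p of 0.0776. In the other lines the change was -0.30 in BT549, -0.25 in MDAMB468 and -0.08 in HCC1806, none past the threshold. The changes differed between the lines with the block (adjusted p = 0.00435) and not without it (0.807). FDXR, a mitochondrial electron carrier, was lower in all 4 lines, by 0.16 on the mean (adjusted p = 0.25; blocked 0.0324, edgeR; 0.0509 with the block in 3 lines). TIGAR, SESN1, TP53I3, DRAM1 and ACER2 passed nowhere, and SPATA18 had too few reads for a fold change to be read.

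The 3 genes left, which act in RNA binding, the ribosome and cargo sorting, are ZMAT3, RPS27L and SUSD6. None was called without the block. SUSD6 was at 45.1, 40.9 and 44.8 CPM in shNT and 58.3, 52.7 and 53.1 in shADAR1 in MDAMB468, with no overlap (0.33 ± 0.11, SE; adjusted p = 0.968, edgeR). Its change on the mean of the lines was 0.12 (blocked adjusted p = 0.0483; 0.087 with the block in 3 lines).

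Counted by sign, 9 of the 31 genes were higher in all 4 lines, namely BTG2, PLK2, GADD45A, DDB2, TNFRSF10B, PERP, SESN1, SPATA18 and SUSD6, against 12.3% of all genes tested. Lower in all 4 lines were FBXO22, XPC, POLH, FDXR and TP53INP1, against 9.41%. SPATA18 is counted here on 6 reads against 2 in BT549 and 2 against 0 in MDAMB468, and PLK2 on a change of 0.00 in BT549 that turned negative under other scalings. Of these 14 genes, GADD45A and FDXR alone kept their sign in every line in all 24 fits that left out 1 library. Arms did not overlap for 5 genes upward and 4 downward in BT549 (background 8.24% and 6.43%), 2 and 0 in HCC1806 (4.38% and 3.2%), 2 and 3 in MDAMB231 (7.19% and 7.01%) and 3 and 1 in MDAMB468 (6.69% and 4.3%). The change of 0 genes differed between lines without the block (0.0234%; 3 at an unadjusted p under 0.05, as were 4.44% of all genes; DESeq2 called 1, POLH, over a background of 0.576%), of 5 with it (4.69%) and of 2 with the block in 3 lines (1.45%).

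The remainder of the p53 network was read from lists of related genes. Of 11 regulators and relatives of p53, 4 rose on the mean of the lines and 0 fell (background 1.26% and 1.7%). They were MDM2 (0.70, adjusted p = 5.93e-08), HIPK2, a kinase of p53 (0.23, 0.0142), USP10, a deubiquitinase (0.18, 0.0147), and MDM4, an inhibitor of p53 (0.19, 0.0294). TP63 fell by 1.28 in MDAMB231 (adjusted p = 0.0194), at about 1 CPM, and passed in no other line.

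Of 36 further direct p53 targets, 2 rose on the mean of the lines and 0 fell (background 1.26% and 1.7%). Their median log2 fold change was 0.01, against 0.02 over all genes. With the block the counts were 9 and 2 (7.25% and 5.96% of all genes), and with the block in 3 lines 6 and 2 (4.98% and 4.57%). BBC3, the pro-apoptotic protein PUMA, rose by 0.44 ± 0.08 (SE; adjusted p = 0.00206, edgeR). Its level went from 9.62, 8.49 and 12.03 to 13.1, 11.4 and 16.3 CPM in BT549, from 8.31, 8.55 and 9.91 to 13.5, 10.2 and 12.6 in HCC1806, from 9.04, 9.48 and 8.18 to 9.92, 12.6 and 10.99 in MDAMB231, and from 3.94, 3.69 and 3.62 to 5.98, 4.90 and 5.45 in MDAMB468. The arms overlapped in BT549 alone, and no single line passed without the block.

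IGFBP3, a secreted binder of insulin-like growth factors, rose by 0.47 ± 0.10 (SE) on the mean of the lines (adjusted p = 0.00874, edgeR). Its shNT mean ranged from 40.2 CPM in MDAMB231 to 915 in BT549, and the arms separated in those same lines. In MDAMB231, 1 of the 36 fell: TP53I11, at 0, 0.267 and 0.530 CPM in shNT and 0, 0.0385 and 0 in shADAR1, a call that was lost without shNT replicate 3.

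**Figure D5:**
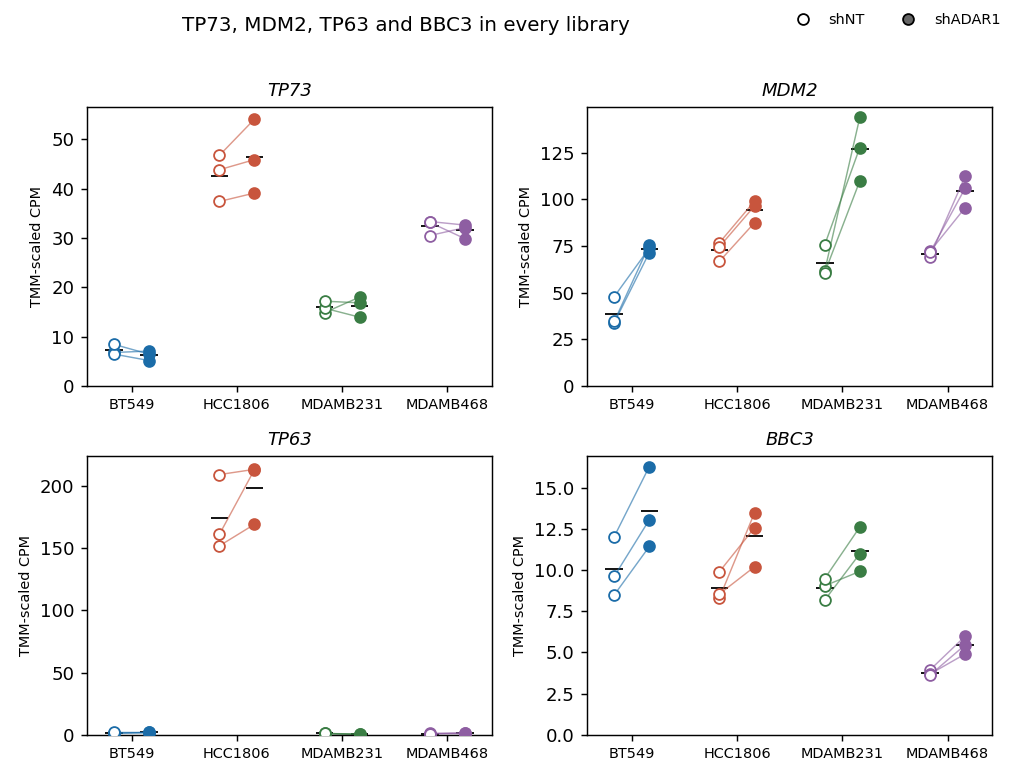
TMM-scaled CPM of TP73, MDM2, TP63 and BBC3 in each of the 24 libraries, open for shNT and filled for shADAR1, with lines joining equal replicate numbers and bars at the means. TP73 differs more between lines than between arms, TP63 is at 152 CPM or more in HCC1806 and under 2 CPM elsewhere, and BBC3 is higher in shADAR1 within all numbered pairs.

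A further list held 20 cell cycle genes that p53 is known to lower through p21 and the DREAM complex. Of these, 1 rose on the mean of the lines and 0 fell (background 1.26% and 1.7%). It was E2F1, a driver of S phase (0.20, adjusted p = 0.0171, edgeR). With the block 6 rose and 1 fell (7.25% and 5.96% of all genes), and with the block in 3 lines 5 rose and 0 fell (4.98% and 4.57%). ATF4 and CHOP are transcription factors of a stress pathway that shares genes with p53. Of 10 genes of this pathway, which include those of ATF4 and CHOP themselves, 2 rose on the mean of the lines and 0 fell (background 1.26% and 1.7%). They were DDIT4, an inhibitor of mTOR signalling (0.45, adjusted p = 0.00442), and ASNS, asparagine synthetase (0.29, adjusted p = 0.0348). With the block 8 of the 10 rose, against 7.25% of all genes, and with the block in 3 lines 5, against 4.98%.

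A final property of the genes that fell was read from their 3′ UTRs, since 2 words of 7 letters were frequent there among genes that fell in all lines together. Of 16011 tested genes with a 3′ UTR in GENCODE 29, 11.89% held ATCTTCA and 8.938% GTGGGCC, against 43.33% and 23.61% of the 360 that fell on the mean of the lines. TP53INP1 held both words once, and POLH held GTGGGCC once, at chr6:43614814-43614842 (GRCh38, plus strand), with the word in capitals.
POLH: gtaaaaagtgtGTGGGCCttggagtctaa
Of the 31 tested p53 targets, 6 held ATCTTCA (RRM2B, CCNG1, BTG2, TP53INP1, PPM1D and ZMAT3) and 6 held GTGGGCC (SUSD6, CDKN1A, DDB2, FDXR, TP53INP1 and POLH). Of these 11 genes, POLH and TP53INP1 were called without the block. Among the others, BTG2, SUSD6, DDB2, PPM1D, ZMAT3 and CDKN1A were above 0 on the mean of the lines. RRM2B, CCNG1 and FDXR were below 0. Both words were chosen with earlier results of these data known, so their shares among the fallen genes are a description and not a test. Whether they have a part in the falls of POLH and TP53INP1 was not tested, and the labels do not give the hairpin's sequence.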

How the data were processed

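Per the submitters' processing notes, the tools were bcl2fastq, STAR, Subread featureCounts and edgeR; their order, strand use and the genome build are not given in the sources used here. The authors deposited, per the file headers, read counts per gene for each library, CPM of the library total and RPKM (CPM per kilobase of listed gene length). The deposited CPM and RPKM equalled values recomputed from the counts and were not tested. The counts of 24 libraries were fitted with edgeR 4.0.16 in R 4.3.3 (TMM scaling, filterByExpr over the 8 groups, 1 coefficient per group, quasi-likelihood F test, 2-sided, Benjamini-Hochberg adjustment over 21352 genes). The common biological coefficient of variation was 0.176. Contrasts were shADAR1 against shNT per line, their mean, differences between lines, and shNT levels between lines. SEs came from the fold change and F. The code was tested on simulated data.

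Members and gene lists were chosen with earlier results of these data known. All 32 members were described. Values of every library were given for CDKN1A, for members past the threshold, and for baselines at the extremes or of widest range; of other lists at most the 3 smallest p-values were to be named, and MDM4 was added after its values were seen. One further gene that was to be named is not reported here. Members called only under the replicate block were added likewise, as was BTG2 after knockdown.

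Same-numbered libraries were checked for shared deviation from the group means. The correlations were 0.139, 0.158 and 0.25 in BT549, 0.242, 0.332 and 0.443 in HCC1806, and 0.204, 0.348 and 0.149 in MDAMB231, all over 0.1, so these numbers were taken to pair the libraries; the pairing rests on the data, since the labels do not say what a number marks. Alternatives were RLE and upper-quartile scaling, no filter or a stricter one (10 or more counts in each of the 24 libraries), the replicate block, each line alone, each library left out, and DESeq2 1.42.0. The block in 3 lines was chosen after seeing the data. Of the 32 genes, 7 share exon bases with a gene on the opposite strand in the coordinates deposited with the counts. These are FAS, FBXO22, PLK3, POLH, TNFRSF10B, TP53I3 and XPC, with 4 bases for POLH. Without strand their reads there cannot be told apart from those of that neighbour.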

Additional observations from a re-analysis of the deposited data

Results flagged for a closer look

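With the replicate block, the knockdown response of 5 p53 targets differed between the 4 lines in edgeR's joint test. The adjusted p was 0.00273 for POLH and 0.00435 for TP53INP1, which fell most in MDAMB231. It was 0.0062 for TNFRSF10A, 0.0107 for PHLDA3 and 0.0387 for PLK2. MDAMB231 was the line with the largest change of each of the 5, downward for PHLDA3 and upward for TNFRSF10A and PLK2. The response of TNFRSF10A in HCC1806 also differed from the mean of the other 3 lines (-0.44, adjusted p = 0.0177). In edgeR without the block none of these differences passed (DESeq2 without a block passed POLH, adjusted p = 0.00533), and with the block in 3 lines only POLH (0.0146) and TP53INP1 (0.0157) did.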

How the results depend on the processing

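Counts of p53 targets past the threshold were recomputed under the alternatives that apply to them; those of baselines have no block, and the mean and the line differences have no fit on 1 line. With the replicate block in all 4 lines the counts were 2 in BT549, 1 in HCC1806, 9 in MDAMB231, 2 in MDAMB468 (PERP 0.23 and SUSD6 0.33), 11 on the mean of the lines, 5 for differences between lines and 1 for HCC1806 against the other 3. The share of all genes called in MDAMB468 with this block is not given here, so its 2 calls have no background beside them. In MDAMB468 the same-numbered libraries correlated at 0.165, 0.166 and 0.0651, so the numbers were not taken to pair them, although each library there correlated best with its own number. With the block in the other 3 lines the counts were 2 in BT549, 6 in MDAMB231, 7 on the mean and 2 between lines. Without a filter on low counts the BT549 count was 0 (POLH, adjusted p 0.0529), on the 6 MDAMB231 libraries alone the count was 1, and DESeq2 called 1 difference between lines. Leaving out 1 library at a time gave 0 to 1 in BT549, 2 to 3 in MDAMB231 and on the mean, 30 for baselines, and 0 for HCC1806, MDAMB468 and both tests of line differences. The 0 in BT549 came without replicate 1 or 2 of either BT549 arm. For TNFRSF10A in MDAMB231 the adjusted p was 0.0138 by DESeq2, 0.0334 with upper-quartile scaling and 0.0256 with the stricter filter. On the mean of the lines, XPC passed without HCC1806 shADAR1 replicate 3 (adjusted p 0.0392) and PERP without BT549 shNT replicate 3 (0.0417). The calls of MDM4 and ASNS on the mean were lost in 13 and 15 of the 24 such fits (adjusted p up to 0.0661 and 0.0774). The call of TP63 in MDAMB231 was lost without shADAR1 replicate 1 or 2 or shNT replicate 2 or 3 of that line (up to 0.124). Of 2221 recomputed log2 fold changes of 14 named genes, 6 fell below the threshold, 40 rose past it, and 65, of 24 values, changed sign, none of them past the threshold on either side. Leaving out 1 library at a time, CDKN1A ran from -0.22 to 0.03 in BT549, -0.13 to 0.41 in HCC1806, -0.25 to 0.27 in MDAMB231, -0.11 to 0.44 in MDAMB468 and -0.01 to 0.13 on the mean, and PLK2 from -0.13 to 0.12 in BT549, -0.11 to 0.29 in HCC1806 and -0.01 to 0.34 in MDAMB468. Other values whose range crossed 0 were, in BT549, BTG2 (-0.10 to 0.17), PHLDA3 (-0.06 to 0.15; on the mean -0.14 to 0.02) and RRM2B (-0.07 to 0.05). In HCC1806 they were PERP (-0.02 to 0.22), RRM2B (-0.06 to 0.29), SUSD6 (-0.05 to 0.14), TNFRSF10B (-0.09 to 0.09), TP53INP1 (-0.23 to 0.01) and XPC (-0.31 to 0.18). In MDAMB231 they were PERP (-0.01 to 0.17) and SUSD6 (-0.09 to 0.10), and in MDAMB468 POLH (-0.08 to 0.03), RRM2B (-0.15 to 0.05), TNFRSF10A (-0.09 to 0.14) and TNFRSF10B (-0.02 to 0.20). PLK2 in BT549, at 0.00, was also -0.01 with RLE scaling, on the 6 BT549 libraries alone and by DESeq2, and -0.00 with upper-quartile scaling and with the stricter filter. Depth limits SPATA18 and EDA2R, whose means stayed under 1 CPM, and BTG2 in MDAMB231.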
